A study of Mus musculus with 15 samples.

Results

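The untreated mouse liver of a methotrexate study is described here across its genes, from the 5 control libraries among the 15 liver libraries of the series. Members were chosen by label alone, as every library labelled control, and no treated library enters any value. Control livers came from WT mice with no agent named in the labels. The other libraries, 5 a group, came from WT mice given a single intraperitoneal dose of methotrexate (MTX, 20 mg/kg), or MTX+Nitrate, in which the same dose followed drinking water with 2 mM nitrate for 5 days; livers were collected 24 h after the injection. The labels used here give neither strain, age and sex nor the hour of collection, and do not say whether controls received a vehicle. They also do not say in words that each library is a separate animal, so the spread between libraries is the spread between 5 labelled samples, which may in part be technical.

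The liver makes most proteins of the blood plasma, clears amino acid nitrogen through the urea cycle, stores and releases glucose, builds fatty acids, cholesterol and bile acids, and oxidises or conjugates foreign compounds. Most of its mass is hepatocytes, which divide this work along the axis between the portal and the central vein. Sinusoidal endothelial cells, Kupffer cells (the resident macrophages), stellate cells and bile duct cells make up the rest. Many hepatic genes also follow the time of day, the last meal and sex hormones acting through growth hormone.

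Each control library held between 16663967 and 18626574 counts assigned to genes, and between 12601 and 12895 genes reached 1 CPM (counts per 1000000 in the library). Over the 5 libraries, 12841 of 54532 annotated genes averaged 1 CPM or more, and 30567 had no count in any. Every pair of libraries differed by more than sampling allows, with a variance of count differences from 21.6 to 41.7 times the sampling variance over 10 pairs, so none was a copy of another. In a principal component analysis, library 2 stood apart on the first component (30.2% of variance) and library 1 on the second (28.4%). The defining genes of the labelled tissue were present: all 10 hepatocyte markers were above 5 CPM, with a sum between 88594 and 119980 CPM.

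A few genes carried much of the RNA. Alb, which encodes serum albumin, alone took 8.28% ± 1.04 of all counts (SD, n = 5), the 10 most abundant genes 18.8% ± 1.10 and the 100 most abundant 40.8%. Between 204 and 245 genes made up 50% of a library, and between 3994 and 4075 genes made up 90%. Because long transcripts yield more reads, levels were also divided by gene length and rescaled to 1000000 per library, here the length-scaled level. On that scale the concentration was steeper: Alb took 9.25% ± 1.18, the 10 leading genes 26.1% ± 0.83, and 73 to 84 genes made up 50% of the total. By counts, 113 genes at 1000 CPM or more held 42.2% of a library, 1362 genes from 100 to 1000 CPM held 33.0%, and 4859 genes from 1 to 10 CPM held 2.04%.

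Alb had 63879, 88495, 93400, 82938 and 86022 CPM in control libraries 1 to 5, so library 1 lay below the other 4. The mitochondrial gene mt-Co1, a subunit of cytochrome c oxidase, came next with 2.19% ± 0.11 of counts. Apoe (lipoprotein clearance) took 1.64% ± 0.09, C3 (the central complement component) 1.20% ± 0.10, Apob (the structural protein of very low density lipoprotein) 1.11% ± 0.09 and Serpina3k (a secreted serine protease inhibitor) 1.09% ± 0.07. Ahsg, the mineral-binding plasma protein fetuin-A, Apoa1, the main protein of high density lipoprotein, Scd1, the stearoyl-CoA desaturase, and mt-Cytb completed the first 10. Scd1 was the most uneven of these, with 9316, 10629, 8465, 7862 and 2502 CPM in libraries 1 to 5.

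Length changed which genes led. Of the 20 genes that led by counts and the 20 that led by length-scaled level, 10 were shared. Apob, with a gene model of 13934 bases, ranked 5 by counts and 60 by length-scaled level. Apoa2, a small high density lipoprotein protein with a model of 537 bases, ranked 29 by counts and 6 by length-scaled level, at 16457 ± 1082. Fabp1, the liver fatty acid carrier, ranked 56 and 14, and Mup3, a major urinary protein that carries pheromones, ranked 21 and 10. Ttr, the thyroxine and retinol carrier transthyretin, ranked 26 and 15.

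**Figure D1:**
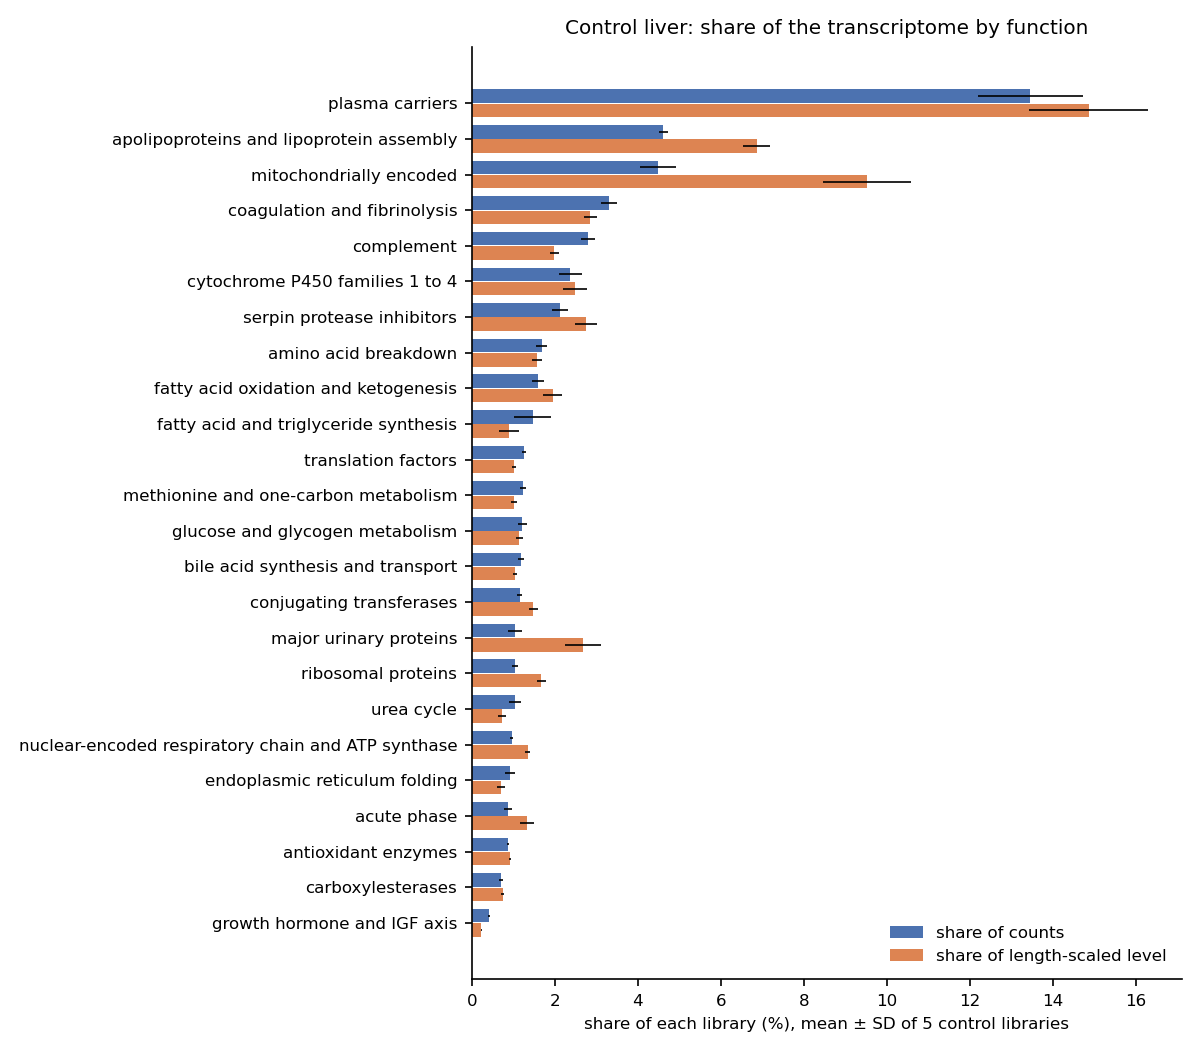
Share of each control library taken by genes of each function list, in percent of counts (blue) and percent of the length-scaled total (orange); bars are means of 5 libraries and lines are ± SD. Plasma carriers lead on both scales, at 13.5% of counts and 14.9% of the length-scaled level, and mitochondrially encoded genes are 4.48% of counts and 9.53% of the length-scaled level.

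Plasma proteins were the largest product of the tissue. Their 7 lists (carriers, apolipoproteins, coagulation, complement, serpins, acute phase and major urinary proteins) held 148 genes, of which 140 reached 1 CPM, and took 28.2% ± 1.69 of counts and 33.3% ± 1.94 of the length-scaled level. Without Alb the share of counts was 19.9%. Plasma carriers took 13.5%, but 11.3% in library 1, where Alb was lowest. Apolipoproteins and the proteins that assemble lipoproteins took 4.62% ± 0.11, coagulation and fibrinolysis 3.30%, complement 2.79%, serpins 2.13%, the major urinary proteins 1.04% and the acute phase list 0.876%. The bar plot of shares by function shows these lists beside the metabolic ones.

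Among carriers, Gc, the vitamin D binding protein, averaged 6554 ± 283 CPM, and Pzp, a broad protease trap, 6433 ± 658 CPM. The 3 fibrinogen chains were at a similar length-scaled level: Fga 5328, Fgb 3691 and Fgg 5770. Plg, the precursor of the clot-dissolving enzyme plasmin, averaged 2965 ± 193 CPM. In the complement list C3 was followed by Vtn (vitronectin, which blocks the terminal complex) at 2756 ± 230 CPM and C4b at 2052 ± 160 CPM. Of the acute phase list, Hpx and Hp, which bind free haem and haemoglobin, averaged 2757 ± 447 and 2135 ± 324 CPM, while the strongly inducible Saa1 averaged 31.7 ± 13.4 CPM. Saa1 had 21.4, 50.6, 29.5, 17.9 and 39.0 CPM in libraries 1 to 5, so all 5 livers held it far below the constitutive plasma genes.

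The promoters of plasma protein genes were short of CpG pairs, and some held the letters GTTAAT, the core of the site known for HNF1, a homeodomain factor of liver, kidney and gut. GTTAAT was looked for on both strands of 300-base windows, 250 bases before and 50 after each start of transcription. It was in 26.7% of 116 windows of the 7 plasma protein lists, against 7.10% of all 32851 windows and 5.02% of windows of genes at 5 CPM or more. The share was 50% among serpins, 41.2% among complement genes, 40.9% among carriers and 33.3% among coagulation genes, but 8.33% in the acute phase list, 5% among apolipoproteins and 0% of 11 windows of major urinary proteins, so 3 of the 7 lists were near or below the share of all windows. Neither trait was particular to plasma protein genes. GTTAAT was in 66.7% of 6 windows of female-biased liver genes, 19.5% of cytochrome P450 windows and 0% of 6 urea cycle windows. In plasma protein windows the median ratio of CpG pairs to the number expected from base content was 0.224, against 0.384 in all windows. It was 0.130 in P450 windows and 0.0971 in carboxylesterase windows. The median share of G and C was 48.7% in plasma protein windows, 52.7% in all windows and 61% in windows of genes at 5 CPM or more. The part of base content in the shares of GTTAAT was not tested. A match describes these letters and is no evidence of binding. The windows of Alb and Serpina1b (an alpha-1 antitrypsin gene) are shown because these genes lead the carrier list and the alpha-1 antitrypsin cluster. They are from RefSeq on GRCm38.p6 and run 5′ to 3′ along the gene. Alb lies at chr5:90460620-90460919 on the plus strand and Serpina1b at chr12:103738140-103738439 on the minus strand. Capitals mark GTTAAT, at position -32 in Alb and -26 in Serpina1b relative to the start, and, in Alb, TTATGTAA, the D-box letters bound by Dbp and its relatives, at -223 and reversed at -204. TTATGTAA was in 0.938% of all windows.
Alb: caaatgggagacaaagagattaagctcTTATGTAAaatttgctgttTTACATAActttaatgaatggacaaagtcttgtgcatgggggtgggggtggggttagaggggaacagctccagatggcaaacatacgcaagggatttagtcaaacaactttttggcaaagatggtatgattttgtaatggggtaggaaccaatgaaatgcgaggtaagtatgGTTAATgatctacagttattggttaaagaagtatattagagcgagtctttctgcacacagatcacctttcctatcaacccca
Serpina1b: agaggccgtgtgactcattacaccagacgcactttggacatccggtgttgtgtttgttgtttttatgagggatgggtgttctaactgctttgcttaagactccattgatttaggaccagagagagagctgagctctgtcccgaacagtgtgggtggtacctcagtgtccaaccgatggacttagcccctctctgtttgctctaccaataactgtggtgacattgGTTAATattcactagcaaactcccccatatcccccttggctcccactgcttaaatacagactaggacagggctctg

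After plasma proteins and mitochondrially encoded genes, the P450 and amino acid breakdown lists were the next largest. Cytochrome P450 genes of families 1 to 4, which oxidise drugs, steroids and fatty acids, took 2.37%, with 55 of 80 genes at 1 CPM or more. Cyp2e1, an ethanol and acetaminophen oxidase, led them at 4869 ± 1256 CPM, followed by Cyp3a11, a broad drug oxidase, at 4150 ± 510 CPM and Cyp2c29 at 1853 ± 533 CPM. Conjugating transferases took 1.15% and carboxylesterases 0.700%, led by Mgst1 at 1808 ± 78.4 CPM and by Ces1c at 2182 ± 193 CPM. Amino acid breakdown took 1.68%, methionine and one-carbon metabolism 1.23% and the urea cycle 1.03%. Cps1, the entry enzyme of the urea cycle, averaged 5313 ± 953 CPM, Ass1, which joins citrulline to aspartate, 2305 ± 159 CPM and Arg1, which splits off urea, 1122 ± 160 CPM.

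Fatty acid oxidation and ketogenesis took 1.59% of counts and fatty acid and triglyceride synthesis 1.47%. Cpt1a, the gate for fatty acids into mitochondria, averaged 501 ± 88.4 CPM. Glucose and glycogen metabolism took 1.22%, and bile acid synthesis and transport 1.18%. Within the bile acid list Scp2, a sterol carrier, averaged 5055 ± 511 CPM, Abcb11, the canalicular bile salt pump, 967 ± 128 CPM and Cyp8b1, the hydroxylase that leads to cholic acid, 462 ± 114 CPM. Cyp7a1, the rate-limiting enzyme of the classical pathway, was low and uneven by comparison, with 14.4, 16.5, 41.9, 35.6 and 55.7 CPM in libraries 1 to 5.

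Nuclear genes that every cell uses took shares within the range of the metabolic lists. Ribosomal proteins took 1.04% of counts and 1.67% of the length-scaled level. These shares are uncertain, since 54 of 79 members at 5 CPM or more share much sequence with another gene, as described further on. Translation factors took 1.26%, the nuclear-encoded respiratory chain and ATP synthase 0.957%, folding factors of the endoplasmic reticulum 0.911% and antioxidant enzymes 0.870% ± 0.0164. Among antioxidant enzymes Cat, which splits hydrogen peroxide, averaged 3472 ± 85.5 CPM and Gpx1, a selenium-dependent peroxidase, 1591 ± 82.2 CPM. Selenop, which carries selenium from the liver to other organs, averaged 5217 ± 160 CPM. The 41 function lists together held 1215 genes and took 54.7% ± 0.79 of counts, leaving 45.3% to genes in none of them.

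Protein-coding genes took 98.3% ± 0.165 of counts and 93.0% ± 1.30 of the length-scaled level, with 11761 of 22046 at 1 CPM or more. Processed pseudogenes took 0.486%, long intergenic RNAs 0.253%, unprocessed pseudogenes 0.207%, rRNA 0.141% ± 0.0598 and mitochondrial rRNA 0.103% ± 0.0193. Among long intergenic RNAs, Malat1, a nuclear RNA of splicing speckles, averaged 286 ± 57.6 CPM. Neat1, the scaffold of paraspeckles, averaged 199 ± 31.7 CPM over a model of 20771 bases. The rRNA value was almost wholly CT010467.1 at chr17:39846353-39848827, with 1988, 591, 990.5, 1760 and 1678 CPM in libraries 1 to 5.

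A 57-base miRNA gene model showed how far a short model can move the length-scaled totals. Gm23935, at chr16:11144125-11144181, had 714, 216, 358.5, 718 and 757 CPM in libraries 1 to 5. It ranked 204 by counts and, at 25308 ± 11294, 3 by length-scaled level, and miRNA genes took 2.87% of that total against 0.0632% of counts. CT010467.1 and Gm23935 were both lowest in library 2 and next lowest in library 3. Which transcripts the reads on these 2 models came from was not tested.

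Genes with near-identical copies need care, since the counting of reads that match several places is not given in the sources used here. A copy was taken as another gene at 1 CPM or more that shares at least 20% of the 50-base stretches of a gene's main transcript (GENCODE, GRCm38). Of 9679 genes at 5 CPM or more with a transcript, 507 (5.24%) had a copy. The spread of each gene between libraries was expressed as a biological coefficient of variation (CV), which is the SD over the mean after the variance of counting is removed. A CV of 0.5 or more was found in 10.5% of genes with a copy and 1.31% of genes without.

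Rps2, a protein of the small ribosomal subunit, had 0.330, 0.681, 10.7, 236 and 0.488 CPM in libraries 1 to 5. Its pseudogene Rps2-ps13 had 430, 479, 507, 260 and 341 CPM. Summed with its 5 copies, Rps2 had 439, 490, 526, 530.1 and 350 CPM, and the CV was 0.160 for the sum, against 2.10 for the gene alone. The CV was 0.0510 for Rpl26 with its copy and 1.98 alone, and 0.0929 for C4a summed with C4b and 0.730 alone. For Gapdh, the glycolytic dehydrogenase listed at only 16.3 CPM, it was 0.156 summed with its copies and 1.02 alone. These genes were only 10.2%, 7.86% and 4.75% of their sums, so the sums mostly follow the copies. C4b alone had a CV of 0.0778, below that of its sum with C4a. Of the 173 genes with a CV of 0.5 or more, 53 had a copy, and 38 of these were below 0.5 once summed with it. A larger, steadier copy lowers the CV of a sum in any case, and whether reads were exchanged between copies was not tested. The shares of counts given above for ribosomal proteins and for processed pseudogenes are therefore uncertain.

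**Figure D2:**
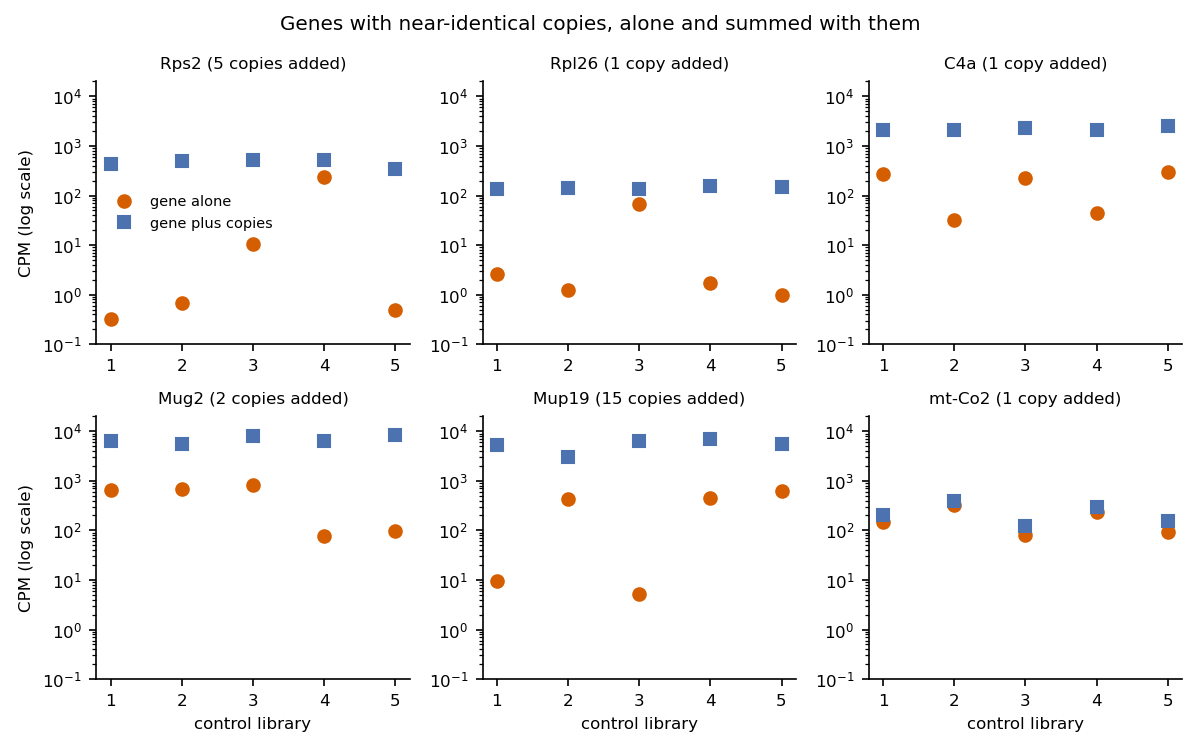
CPM (log scale) in each of the 5 control libraries for 6 genes with near-identical copies, as the gene alone (orange circles) and as the sum of the gene and its copies (blue squares). Rps2 alone runs between 0.330 and 236 CPM while its sum runs between 350 and 530.1 CPM; for mt-Co2 the sum varies as the gene does.

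Some mitochondrial genes have near-identical copies too. mt-Co1 averaged 21911 ± 743 CPM, but mt-Co2, mt-Co3 and mt-Atp6, read from the same polycistronic genome, averaged 176 ± 101, 104 ± 60.8 and 165 ± 88.2 CPM. Nuclear copies of these 3 genes lie side by side on chromosome 1 as pseudogenes Gm28661 (chr1:24614885-24615565), Gm28437 (chr1:24613189-24613971) and Gm10925 (chr1:24613974-24614651). They share from 99.5% to 99.9% of the 50-base stretches, against 51.1% for mt-Co1 and its copies. Summing with the copies gave 237, 198 and 282 CPM and left CVs of 0.469, 0.595 and 0.559, so the sums stayed low and the libraries still differed. How reads that match both places were counted is not known. The levels of these 3 genes relative to mt-Co1 are therefore uncertain, and so is the share of 4.48% for the mitochondrial list. The cause of their low levels was not tested.

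Markers of the other cells of the liver were present at low levels. Stellate cell and fibroblast markers summed to between 779 and 1251 CPM, sinusoidal endothelial markers to between 376 and 555 CPM, Kupffer cell markers to between 314 and 575 CPM and bile duct markers to between 60.1 and 92.1 CPM. In bulk RNA fewer cells of a type and less RNA per cell cannot be told apart. Monocyte, neutrophil, T and NK cell, and B and plasma cell markers each summed to at most 14.0 CPM in any library. Adipocyte markers were at or near 0, with Adipoq, Lep and Retn at 0 in all 5 libraries, as were Acta1, Myh4 and Myl1 of skeletal muscle. Of 11 pancreatic acinar markers 7 were at 0, but the list summed to between 35.4 and 51.4 CPM, with 1 marker at 5 CPM or more. Markers of mesothelium, the outer lining of the organ, were uneven: they summed to 27.9, 45.0, 22.8, 3.09 and 5.43 CPM in libraries 1 to 5, so libraries 4 and 5 held much less than the others.

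All 5 libraries held Y-linked transcripts and next to no Xist. The Y-linked genes Ddx3y, Eif2s3y, Kdm5d and Uty averaged 83.9 ± 15.0, 45.5 ± 5.13, 26.8 ± 2.59 and 22.9 ± 2.37 CPM, and Xist, the RNA that silences an X chromosome in females, averaged 0.340 CPM. Of the male-biased liver genes, 13 of 15 were at 5 CPM or more, with Cyp2d9 at 1546 ± 320 CPM and Slco1a1 at 1292 ± 210 CPM. Female-biased genes were low, with 6 of 16 at 5 CPM or more, and those 6 had the highest median CV of the 44 lists compared further on, 1.03. Cyp2b9 had 17.5, 84.0, 5.98, 14.3 and 20.3 CPM and Hao2 4.19, 57.1, 11.6, 17.5 and 4.57 CPM in libraries 1 to 5. Of the 6 genes, 4 were highest in library 2 and 4 lowest in library 1, and 4 had a near-identical copy. Male-biased genes ran the other way in library 2, where 9 of 13 were lowest, against 23.9% of all genes. Elovl3, a fatty acid elongase, was among them at 29.6 CPM.

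Most genes differed little between the 5 livers. Among 9684 genes at 5 CPM or more, the median CV was 0.112, with quartiles of 0.0718 and 0.171, and 173 genes (1.79%) reached 0.5. The median was 0.140 between 5 and 20 CPM, 0.0998 between 20 and 100 CPM, 0.0923 between 100 and 1000 CPM and 0.102 above, so the spread depended little on level beyond the lowest class. At 5 CPM a library held at least 83.3 counts, for a counting error of up to 11.0%. Among genes at 100 CPM or more, the steadiest included Rnf10 at 203 ± 2.65 CPM, Clptm1 at 138 ± 2.36 CPM, Gabarap, an autophagy protein, at 137 ± 2.47 CPM and Ogdh, a citric acid cycle enzyme, at 209 ± 3.61 CPM, all within counting error or nearly so.

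**Figure D3:**
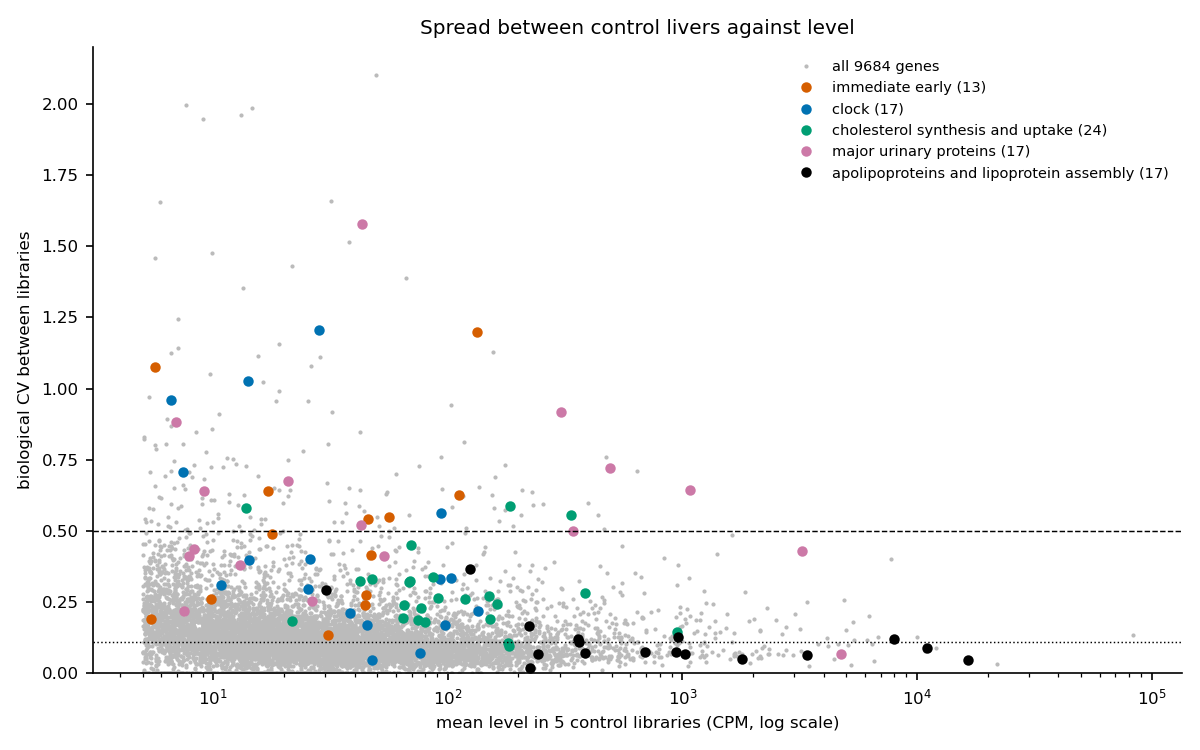
Biological CV between the 5 control libraries against mean level (CPM, log scale) for 9684 genes (grey), with members of 5 lists in colour; the dashed line is a CV of 0.5 and the dotted line the median of all genes, 0.112. Most apolipoprotein genes lie near or below the dotted line, and most immediate early, clock, cholesterol and major urinary protein genes above it.

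The 44 lists with at least 5 members at 5 CPM or more separated steady from variable functions. For the counts by library below, each library was highest for 19.6% to 21.1% of all 9684 genes and lowest for 17.4% to 23.9%. Lysosomal proteases had the lowest median CV, 0.0608, followed by the nuclear-encoded respiratory chain and ATP synthase at 0.0681, antioxidant enzymes at 0.0685, the citric acid cycle at 0.0689, translation factors at 0.0706 and apolipoproteins at 0.0762. Coagulation (0.0900) and complement (0.0924) were also below the 0.112 of all genes, as 14 lists were in all. Medians at least 1.5 times that of all genes were found in 21 lists, or in 6 with edgeR's tagwise dispersions. Those draw each gene toward the others and left 80 genes at 0.5 or more in place of 173. Which lists the 6 were was not recorded, so the medians given here are all of the CV defined above. After the female-biased genes, the major urinary proteins had a median CV of 0.499, immediate early genes 0.491, clock genes 0.333, fatty acid and triglyceride synthesis 0.321, cell cycle genes 0.282, male-biased genes 0.279 and cholesterol synthesis and uptake 0.264. Of the 17 urinary protein genes 15 have near-identical copies, so single members such as Mup7 (1604, 58.4, 1394, 671 and 1657 CPM) and the list's median are uncertain. Mup7 summed with its 15 copies had between 3004 and 7068 CPM and a CV of 0.280. Mup20, which encodes the male pheromone darcin and has only a pseudogene copy, had 613, 178, 250, 273 and 398 CPM. Cytochrome P450 genes had a median of 0.249, and 0.179 over the 29 members with no copy.

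Cholesterol genes moved as a block in library 2. All 24 members of cholesterol synthesis and uptake at 5 CPM or more were highest there, where 21.1% of all genes were highest, and their median CV was 0.264, against 0.166 without that library. Hmgcs1, the cytosolic synthase at the head of the pathway, had 98.2, 372, 124, 155 and 173 CPM in libraries 1 to 5. Insig1, the membrane protein that holds SREBP back when sterols are ample, had 273, 655, 173, 268 and 299 CPM. Library 2 was above the rest in both, while 11 of the 24 genes were lowest in library 1 and 12 in library 3.

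Fatty acid synthesis followed in part. Of 21 genes 11 were highest in library 2 and 9 lowest in library 5, against 21.1% and 17.7% of all genes. Fasn, the fatty acid synthase, had 488, 1449, 389, 503 and 371 CPM, and Acly, which supplies cytosolic acetyl-CoA, 292, 814, 274, 313 and 277 CPM. Both were high in library 2 alone, and their values in the other 4 libraries lay close together. Scd1, in contrast, was low in library 5 alone, as given above. Thrsp, a lipogenic regulator, was at 269 and 245 CPM in libraries 1 and 2, and at 83.0, 97.7 and 91.7 CPM in libraries 3 to 5. The share of counts for the list was 2.01% in library 2 and 0.777% in library 5.

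The promoter window of Hmgcs1 is shown because this gene had the highest CV of the list, 0.590. It is chr13:119690101-119690400 on the plus strand (RefSeq, GRCm38.p6), with capitals on TCACNCCAC, letters known as a sterol regulatory element, at -137, and on the reverse of CCAAT, the NF-Y box, at -237, -176, -45 and 11. Of 20 windows of the cholesterol list 80% held CCAAT on either strand, against 37.4% of all windows. That share was not particular to the list: it was 94.4% of 18 folding, 90% of 10 serpin and 80% of 10 carboxylesterase windows. The window of Hmgcs1 was the 1 of the cholesterol list that held TCACNCCAC, which 1.24% of all windows hold.
Hmgcs1: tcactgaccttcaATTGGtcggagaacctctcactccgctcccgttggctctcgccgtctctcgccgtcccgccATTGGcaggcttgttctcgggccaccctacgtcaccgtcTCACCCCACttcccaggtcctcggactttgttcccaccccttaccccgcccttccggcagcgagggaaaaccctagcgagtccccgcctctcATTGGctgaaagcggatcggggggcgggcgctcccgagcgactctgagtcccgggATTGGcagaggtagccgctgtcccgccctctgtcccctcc

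Immediate early genes, which switch on within minutes of a stimulus, were also high in library 2. There 11 of 13 members were highest, and their median CV was 0.491, against 0.247 without that library. Egr1, a zinc finger transcription factor, had 91.9, 417, 36.5, 44.3 and 77.7 CPM in libraries 1 to 5, Fos 1.54, 15.9, 2.65, 1.65 and 6.34 CPM, and Zfp36, which destabilises inflammatory mRNAs, 91.5, 233, 60.2, 70.5 and 102 CPM. Among genes of feeding and fasting, Pdk4, which shuts glucose carbon out of the citric acid cycle, had 10.5, 75.7, 9.09, 15.1 and 19.5 CPM, and Igfbp1, which is repressed by insulin, 96.9, 313, 81.8, 98.3 and 182 CPM. These fasting genes were highest in the same library as Fasn and Acly, which are known to follow feeding. The fasting list as a whole did not favour library 2, where 4 of its 14 members were highest.

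Library 2 also led lists of structure and division. Of 15 actin, tubulin and keratin genes 11 were highest there, with Krt8 and Krt18, the keratin pair of hepatocytes, at 345 and 213 CPM, against 181 to 268.5 and 116 to 164.5 CPM in the other libraries. Of 7 cell cycle genes 6 were highest there, Ccnd1, the cyclin of the first growth phase, among them at 38.6 CPM, against 16.4 to 25.0 CPM in the rest. Of 13 stellate and fibroblast markers at 5 CPM or more, 7 were highest in library 2, 4 in library 4 and 2 in library 1. Among them Col3a1 and Col1a1, which encode fibrillar collagens, had 399 and 112 CPM in library 2. The other libraries ran from 119 to 204 and from 23.6 to 61.2 CPM. Mesothelial markers were highest in library 2 too, at 45.0 CPM. Among liver transcription factors 13 of 19 were lowest there, against 23.9% of all genes. Onecut1, a hepatic homeobox factor, had 84.6, 15.9, 67.3, 31.6 and 49.0 CPM. The part of the mesothelial and stromal signal in the other library 2 values was not tested.

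Clock genes set library 1 apart. Of 17 members 12 were highest and 4 lowest there, and their median CV was 0.333, against 0.167 without that library. Dbp, a rhythmic activator of hepatic genes, had 86.1, 5.84, 11.2, 31.3 and 6.47 CPM in libraries 1 to 5, Per3 39.7, 5.67, 8.35, 9.54 and 6.77 CPM, and Per1 17.5, 2.89, 2.99, 6.93 and 2.62 CPM. The related activator Tef had 180, 46.6, 70.0, 104 and 65.6 CPM. Npas2, which belongs to the opposite, positive arm of the clock, had 1.16, 15.5, 8.07, 7.04 and 5.18 CPM, and was thus lowest where the period genes and Dbp were highest. Library 4 was second in Dbp, Per3, Per1 and Tef. No member of the list has a near-identical copy.

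The window of Per3 (chr4:151044616-151044915, minus strand, RefSeq, GRCm38.p6) is shown because it held the D-box letters TTATGTAA, in capitals, at -205 and -158. It was the 1 window of the clock list's 19 that did. The same letters were in 50% of 10 carboxylesterase windows, against 0.938% of all windows.
Per3: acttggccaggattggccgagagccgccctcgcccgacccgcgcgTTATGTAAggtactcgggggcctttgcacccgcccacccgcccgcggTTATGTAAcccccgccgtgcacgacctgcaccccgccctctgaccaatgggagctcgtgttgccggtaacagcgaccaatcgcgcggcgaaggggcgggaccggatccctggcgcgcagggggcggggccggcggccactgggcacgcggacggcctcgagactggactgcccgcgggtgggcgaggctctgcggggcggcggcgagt

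Other values of library 1 were those of Alb and Ahsg, which were lowest there, and of Pck1 and the urea cycle. Ahsg had 7727, 10598, 10812, 10709 and 10148 CPM in libraries 1 to 5. Pck1, which controls glucose production, had 2878, 1160, 788.5, 1631 and 1677 CPM. Of 28 glucose and glycogen genes 7 were highest in library 1 and 10 in library 2, against 19.7% and 21.1% of all genes. The 8 urea cycle genes were highest in library 1 (4) or library 5 (4), with Cps1 at 6255, 4772, 4614, 4482 and 6440 CPM. Alas1, the first and rate-limiting enzyme of haem synthesis, had 87.3, 21.6, 35.2, 36.7 and 39.3 CPM. Errfi1, a feedback inhibitor of the EGF receptor on the glucocorticoid-induced list, had 983, 455, 435, 584 and 678 CPM, so library 1 was above the rest for each of the last 2 genes. That list as a whole did not favour library 1, where 2 of its 6 members at 5 CPM or more were highest and 2 lowest.

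**Figure D4:**
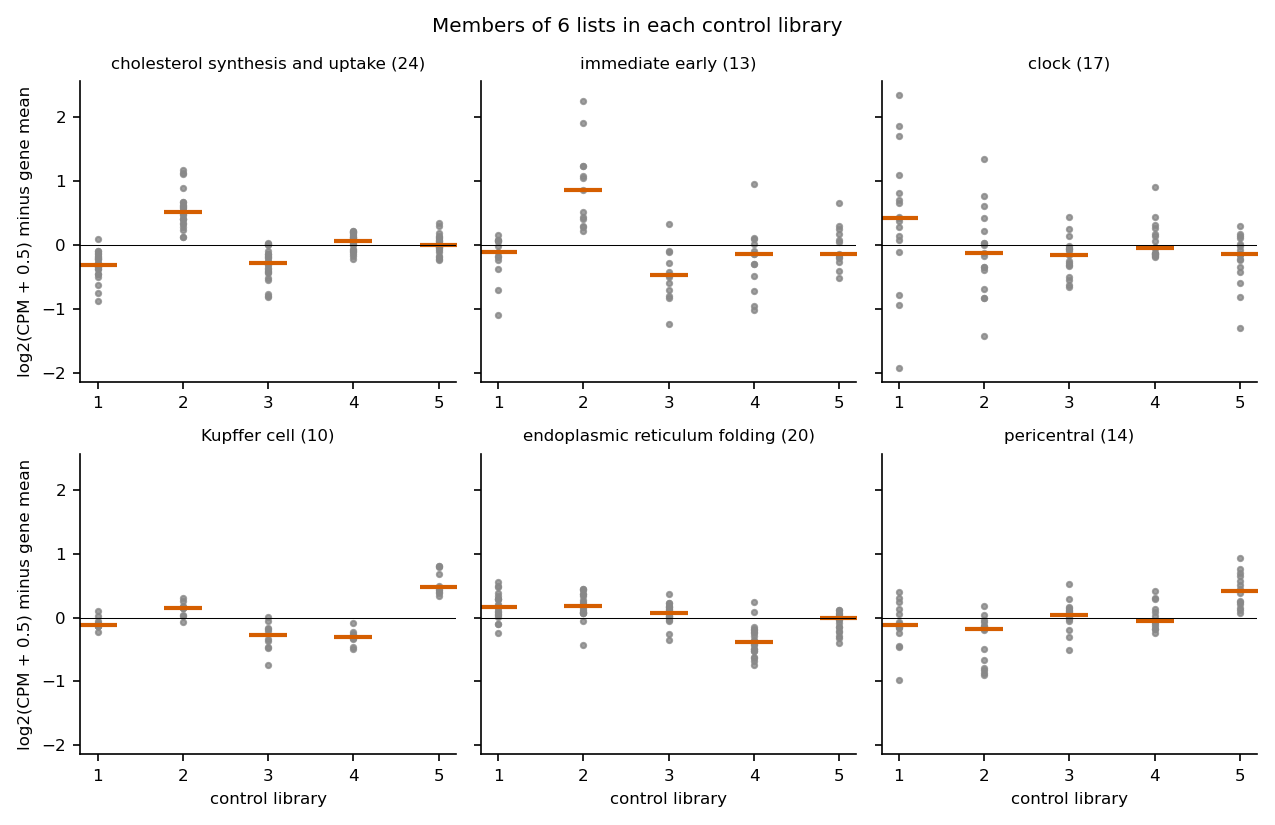
Members of 6 lists in each of the 5 control libraries, as log2(CPM + 0.5) minus the gene's mean; grey points are genes and orange marks are medians. All 24 cholesterol genes are highest in library 2 and all 10 Kupffer cell genes in library 5, and folding genes of the endoplasmic reticulum are low in library 4.

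Library 5 was highest in Kupffer cell markers and in genes of the pericentral zone. All 10 Kupffer markers at 5 CPM or more were highest there, where 19.7% of all genes were highest. Clec4f, a lectin of these cells, had 89.6, 109, 87.5, 80.1 and 133 CPM in libraries 1 to 5, Cd5l, a secreted macrophage protein, 75.3, 78.9, 56.6, 62.1 and 137 CPM, and Csf1r, the growth factor receptor of macrophages, 43.7, 57.4, 39.6, 42.4 and 82.1 CPM. The order of libraries was nearly shared, with library 2 next in each. Sinusoidal endothelial markers were also highest in library 5 in sum, at 555 CPM. Of 14 pericentral genes 11 were highest in library 5: Cyp2e1 had 5181, 2983, 4551, 5196 and 6434 CPM, and Axin2, a feedback target of the Wnt pathway that sets this zone, 6.17, 8.40, 5.93, 10.8 and 14.4 CPM. G6pc, the phosphatase that releases glucose, was at 749 CPM in library 5 and between 350 and 387 CPM in the others.

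Interferon-stimulated genes had a median CV of 0.230. Of 29 members 16 were highest in library 2, 10 in library 5 and none in libraries 1 and 3. Iigp1, a GTPase against intracellular parasites, was the most abundant at 463 ± 52.9 CPM and Bst2, which tethers budding virus, averaged 161 ± 24.7 CPM. Rsad2 was low and uneven, with 5.45, 12.5, 5.02, 6.13 and 14.8 CPM. The list therefore had its higher values in the 2 libraries with most Kupffer cell RNA, and whether the signal lay in those cells was not tested.

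Folding factors of the endoplasmic reticulum were low in library 4. Of 20 members 17 were lowest there, against 19.0% of all genes, with a median of -0.39 on the log2 scale relative to the gene means. The median CV was 0.178, against 0.118 without that library. Hspa5, the main chaperone BiP, had 1601, 1653, 1434, 858 and 1185 CPM in libraries 1 to 5, Hsp90b1 1123, 1068, 938, 640.4 and 922 CPM, and Hyou1 485, 478, 386, 229 and 335 CPM. Heat shock genes, which serve the cytosol, were lowest in library 4 for 13 of 17 members, although their median there was only -0.16. Ribosomal proteins went the other way, with 45 of 79 highest in library 4, against 19.6% of all genes. However, 54 of the 79 have a near-identical copy.

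A long element was frequent in the promoters of the folding list. CCAAT and CCACG with any 9 bases between them, the endoplasmic reticulum stress element at which NF-Y and ATF6 bind, was in 8 of 18 windows (44.4%), against 0.119% of all windows, 39 in number. CCAAT alone was in 94.4% of the list's windows. The window of Hspa5 begins at base 34771840 of chromosome 2 and ends at 34772139, on the plus strand (RefSeq, GRCm38.p6). It is shown because this gene is the target by which the response is usually followed, with its element in capitals at -65.
Hspa5: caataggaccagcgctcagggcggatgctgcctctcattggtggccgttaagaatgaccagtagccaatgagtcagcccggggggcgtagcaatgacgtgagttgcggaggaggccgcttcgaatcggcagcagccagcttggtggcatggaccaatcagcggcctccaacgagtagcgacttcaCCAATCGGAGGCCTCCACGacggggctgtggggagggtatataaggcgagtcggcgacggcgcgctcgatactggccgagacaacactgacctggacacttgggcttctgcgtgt

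Library 4 was also highest for some histocompatibility genes on chromosome 17, which were picked for their spread. H2-K1 (chr17:33996017-34000333), a classical class I heavy chain, had 62.8, 86.4, 61.9, 471 and 99.1 CPM in libraries 1 to 5, and H2-T23 (chr17:36029773-36032855), a non-classical chain recognised by NK cells, 4.19, 9.70, 7.28, 126 and 11.8 CPM. H2-T22 had 7.93, 9.76, 5.81, 46.4 and 7.75 CPM, although it shares sequence with H2-T10. Summed with H2-T10 it had 31.7, 49.9, 38.4, 70.7 and 43.5 CPM, with a CV of 0.317, against 1.11 alone. Other class I genes, such as H2-D1 at a mean of 476 CPM, are not described by library here. H2-K1 and H2-T23 had no copy by the rule used here, but over all other genes H2-T23 shares 26.2% of its 50-base stretches and H2-K1 8.79%. The part of read sharing in these values was not tested.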

How the data were processed

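Liver RNA from WT mice was purified on silica columns and made into SMARTer mRNA-seq libraries, per the labels' protocols. The deposited table holds whole-number counts per gene, not normalized, for all 15 libraries; the 5 control columns were used. Its gene length column is another unit, in bases, deposited by the authors beside the counts; it equals the exon union of GENCODE M21 for 98.0% of 54409 genes. The submitters' processing notes name GRCm38 (mm10); no aligner, counter or strand setting is named in the labels.

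CPM for shares used library totals; gene levels, marker sums and spread used edgeR 4.0.16 TMM factors (0.984 to 1.02, R 4.3.3). Length-scaled levels are counts over gene length, rescaled to 1000000. The biological CV is the square root of variance minus Poisson variance, over the mean, at a mean of 5 CPM or more. On simulated data (9684 genes), true CVs of 0.1, 0.2, 0.4 and 0.8 gave medians of 0.0888, 0.184, 0.364 and 0.686. No groups were compared and no test was run. Named genes were the leading 20 by count and by length-scaled level, the 4 most abundant and 3 most variable members of each list, the most and least variable genes, leading non-coding genes, Xist and 4 Y-linked genes; other genes named were chosen after their values were seen, and some genes that the rule gives are not reported here. Members and lists were chosen with earlier results of these data known. Alternatives covered scaling, filters, denominators, gene length, edgeR dispersions and leaving out each library.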

Additional observations from a re-analysis of the deposited data

Results flagged for a closer look

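In 38 of 204 named genes, 8 of 46 list shares and 1 of 15 biotype shares, 1 library lay apart from the other 4: its gap to the nearest was over 0.71 of the range, Dixon's limit for 5 values. Chance flags about 1 in 20 groups, and over all 9684 genes 5.58% were past the limit; many named genes were picked for their spread, so their share is not comparable. None of 12 marker sums was past it. Library 2 was the highest in 18 cases and library 1 in 8.

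Library 2 was highest for Hmgcs1 (372 CPM), Insig1 (655 CPM), Fasn (1449 CPM) and Acly (814 CPM) of lipid synthesis. It was highest too for the rapidly induced Egr1 (417 CPM), Zfp36 (233 CPM), Ier2 (81.9 CPM) and Btg2 (36.7 CPM), and for Pdk4 (75.7 CPM), the replication helicase subunit Mcm6 (16.7 CPM), Hao2 (57.1 CPM), Cyp2b9 (84.0 CPM), the organic anion carrier family member Slc22a26 (45.7 CPM) and Mup9 (164 CPM). Mup9 is 0.790% of the sum with its 15 near-identical copies, and that sum was lowest in library 2, at 3004 CPM. The shares of counts highest in library 2 were immediate early genes (0.121%), p53 targets (0.0280%), cell cycle genes (0.0187%) and the citric acid cycle (0.328%). Lowest there were Serpina4-ps1 (158 CPM), the antisense gene 0610005C13Rik (92.9 CPM) and the major urinary protein share (0.757%).

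Library 1 was highest for Per1 (17.5 CPM), Per3 (39.7 CPM), the clock repressor Nr1d2 (163 CPM), Alas1 (87.3 CPM), the stellate cell glycoprotein Reln (281 CPM) and Rps3a3 (35.0 CPM), and for the shares of clock genes (0.126%) and of the biotype TEC, transcripts still to be verified (0.0572%). It was lowest for Ahsg (7727 CPM), Rps3a1 (190.2 CPM) and the antioxidant share (0.841%). Rps3a1 and Rps3a3 are copies of each other.

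Library 3 was highest for Alas2, the erythroid enzyme of haem synthesis (141 CPM), Cyp4a12b (230.3 CPM) and Rpl26 (66.5 CPM). Cyp4a12b has a near-identical copy, Cyp4a12a, and the CV is 0.297 for their sum, against 1.39 for Cyp4a12b alone. Cyp4a12b is 11.8% of that sum. Cyp4a12a alone had a CV of 0.207, with 511, 328, 568, 474 and 584 CPM in libraries 1 to 5, so it was not low in library 3. The haemoglobin gene Hba-a1 was not highest there, at 34.1 CPM in library 3 and 27.3 to 58.4 CPM over all 5. Library 4 was highest for H2-K1 (471 CPM), H2-T23 (126 CPM), H2-T22 (46.4 CPM), Rps2 (236 CPM), Gapdh (46.0 CPM) and Gabarap (141 CPM), and lowest for P4hb, which forms disulfide bonds (1467 CPM). For Gabarap the other 4 libraries ran from 135 to 136 CPM, so the gap was small in size. Library 5 was highest for Cd5l (137 CPM), the copper carrier Cp (1966 CPM), G6pc (749 CPM), Gm29216, a nuclear copy of mt-Co1 (105 CPM), and the complement share (3.09%).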

How the results depend on the processing

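Of 71 recomputed values over 8 results, 62 stayed within the margin set for them. The plasma protein share of the length-scaled level was 36.8% with mitochondrially encoded genes left out of the denominator, against 33.3%. The protein-coding share was 98.6% without rRNA, mitochondrial rRNA and miRNA genes, a denominator chosen after seeing the data. Genes with a biological CV of 0.5 or more numbered 307 at a mean of 2 CPM or more, 74 at 20 CPM or more, 7092 with no filter and 80 with edgeR's tagwise dispersions, against 173. With no filter the median CV was 0.196 and 8 lists reached 1.5 times the median of all genes; with tagwise dispersions 6 lists did, against 21.

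Leaving out each library in turn gave a protein-coding share of 98.3% to 98.4%, a share of 18.5% to 19.2% for the 10 leading genes, plasma protein shares of 27.8% to 28.9% of counts and 32.8% to 34.1% of the length-scaled level, 12803 to 12855 detected genes, a median CV of 0.104 to 0.111, 134 to 184 genes at 0.5 or more and 18 to 21 lists. The lowest number of variable genes, 134, was that without library 2. No paired analysis was possible because no groups were compared. The 5 samples limit the CV of any single gene: in simulated data 16.6% of genes with a true CV of 0.4 were estimated at 0.5 or more, as were 80.8% of those with 0.8.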

Other observations

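Ctse and Dio1, which have no near-identical copy, were close to absent in some control livers and clear in others. Ctse (chr1:131638306-131675505), the aspartic protease cathepsin E, had 0, 0.0567, 33.1, 15.8 and 0.549 CPM in libraries 1 to 5; its count of 0 in library 1 allows up to 0.169 CPM (3 counts, counting error only). Dio1 (chr4:107291465-107307169), the deiodinase that activates thyroid hormone in liver, had 26.9, 3.46, 73.6, 3.57 and 0.610 CPM. Libraries 1 and 3 were thus above the rest in Dio1, and libraries 3 and 4 in Ctse. Both genes are among the 20 with the highest CV, and were picked for that spread.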
